A study of Mus musculus with 6 samples.

Results

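The autophagy and lysosome genes described here are 40 genes chosen by name: the initiation, nucleation and conjugation machinery of autophagy, the LC3 and GABARAP family, cargo receptors, the MiT/TFE transcription factors, lysosomal membrane proteins, cathepsins, 2 other hydrolases and subunits of the proton pump. All 40 were found by symbol among the 55367 genes of the deposited table, and all 40 were among the 16746 genes tested. RNA was sequenced from leukemia stem cells (LSCs) of mice with acute myeloid leukemia (AML) driven by the fusion oncogene MLL-AF9, with 3 libraries of WT and 3 of Piezo1cko LSCs. PIEZO1 is a mechanically gated cation channel, and the comparison asks how its loss changes gene expression in LSCs.

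WT donors were Piezo1 fl/fl littermates without Cre, and Piezo1cko donors were Mx1-cre; Piezo1 fl/fl. Both had been given pIpC, a double-stranded RNA that turns on the interferon-inducible *Mx1* promoter driving Cre. The floxed alleles and pIpC were therefore shared by both groups, while Cre was present in Piezo1cko cells only, so an effect of Cre and one of *Piezo1* loss cannot be told apart. Mice were 8 to 10 weeks old. Lin- bone marrow cells of the donors were transduced with an MLL-AF9 retrovirus carrying YFP and were injected into irradiated C57BL/6 recipients, and LSCs were sorted as YFP+ Lin- Sca-1- c-Kit+ CD16/32hi CD34+ cells. The sources used here state neither the round of transplantation nor whether the libraries of a group came from separate mice.

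Autophagy encloses cytoplasm or selected cargo in a double membrane, the autophagosome, and delivers it to the lysosome, an acidic organelle in which hydrolases break it down. The ULK1 complex starts the process, a PI3-kinase complex marks the membrane, and conjugation enzymes attach LC3 and GABARAP proteins to it, to which cargo receptors bind. TFEB, TFE3 and MITF are basic helix-loop-helix factors that bind an E-box in the promoters of many lysosomal and autophagy genes, and TFEB is held in the cytoplasm while mTORC1 is active. In blood stem and leukemia cells, autophagy and lysosomes take part in the turnover of mitochondria, proteins and iron stores.

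Recovered reads on genes ran from 14112070 to 15483550 per library. They were obtained by undoing the regularized log form of the deposited values, which pulls each library towards the gene's mean. Values below are normalized reads, the recovered reads divided by the library's size factor, and fold changes are of recovered reads with their 95% confidence interval unless the deposited scale is named. Adjusted p-values are from limma on the deposited values over all genes tested, and a gene called higher or lower has an adjusted p under 0.05. Counts of the libraries of 1 group differed by 1.41 to 1.8 times the variance that sampling alone gives (1 being sampling alone, over genes with a mean of 50 to 1000 reads). The p-values measure only the spread between these libraries, which may be technical, and with bulk RNA, fewer cells of a type and less RNA per cell cannot be told apart. *Piezo1* itself had 101 ± 7.93 normalized reads in WT and 46.3 ± 10 in Piezo1cko libraries (SD, n = 3), 45.9% of the WT mean (adjusted p = 5.80e-06). The genes behind the sort, *Kit*, *Cd34* and *Fcgr3*, had at least 2466 reads in every library, but their levels were not alike in the 2 groups. *Kit* was called higher at 136% of the WT mean (adjusted p = 8.42e-09) and *Cd34* at 156% (adjusted p = 8.32e-12), while *Fcgr3* was at 98.5% and not called. *Ly6a*, which encodes Sca-1, had 1 read or fewer in WT and 7 to 17 in Piezo1cko libraries and was called higher (adjusted p = 5.35e-04). The part of this shift in the results was not tested.

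Among the 40 genes, 10 were called higher and 18 lower in Piezo1cko LSCs, and 12 were not called. The 28 calls were 70% of the genes, beside 63% of all genes tested (31.6% higher and 31.4% lower). After the libraries were rescaled to a common median of their absolute deposited values, which matches level and not spread, 14 were higher and 13 lower. Differences on the deposited scale shifted upward under this setting, for example from -0.21 to -0.18 for *Atg3* and from 0.21 to 0.25 for *Map1lc3b*. The values of the 2 groups did not overlap for 30 of the 40, beside 66.6% of all genes. The median log2 difference on the deposited scale was -0.06 with a range of -0.54 to 0.62, beside a median of 0.00 over all genes. The median absolute difference on that scale was 0.11, beside 0.09 over all genes tested. On recovered reads the median absolute log2 fold change of the 40 genes was 0.18, beside 0.27 over the 10246 genes averaging 50 reads or more and 0.44 over all genes tested. None of the 40 passed the study's DEG thresholds (a call at 0.05 with a log2 fold change beyond 1 in either direction) on the deposited scale, where 0.818% of all genes passed. At an unadjusted p under 0.05, limma gave 28 genes, of which 0 were past the fold threshold. On recovered reads 1 gene, *Tfeb*, passed, beside 24.9% of all genes and 8.82% of those averaging 50 reads or more. *Tfeb* lay at the edge of this threshold: without WT replicate 2 its log2 fold change was -0.96 and without Piezo1cko replicate 1 -0.89, and it fell just short when the reads were scaled by library totals.

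**Figure D1:**
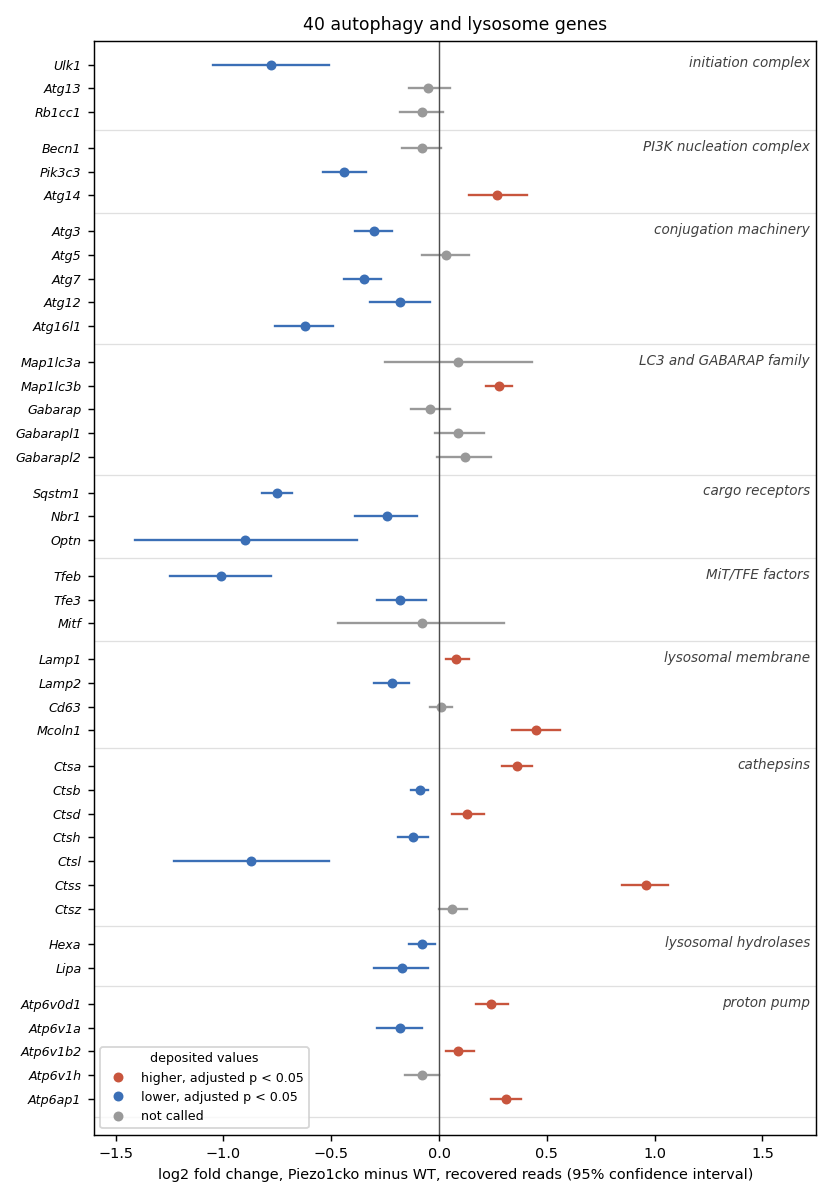
Log2 fold change of recovered reads (Piezo1cko minus WT, horizontal axis) with its 95% confidence interval for each of the 40 genes, grouped by role, with 3 libraries per group. Red points were called higher, blue points lower and grey points not called on the deposited values. *Ctss* lies farthest to the right at 0.96 and *Tfeb* farthest to the left at -1.01, and all 3 cargo receptors and 4 of the 5 conjugation genes are blue.

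Of the 3 MiT/TFE genes among the 40, *Tfeb* had the largest fall on recovered reads, *Tfe3* fell slightly and *Mitf* was not called. *Tfeb* (chr17:47737030-47792419, GRCm38), the best known regulator of lysosome formation, had 280, 332 and 308 normalized reads in the WT libraries and 125, 164 and 167 in the Piezo1cko libraries. Every Piezo1cko library lay below every WT library, and the Piezo1cko mean was 49.5% of the WT mean. The log2 fold change was -1.01 (-1.25 to -0.78, adjusted p = 8.23e-08). *Tfe3*, the X-linked gene with the highest level per length of the 3 (20.4 ± 0.54 transcripts per 1000000, TPM, in WT), had 833, 867 and 877 reads in WT and 716, 818 and 749 in Piezo1cko libraries. It fell to 88.6% of the WT mean without overlap, a log2 fold change of -0.18 (-0.29 to -0.06, adjusted p = 0.0108). This call was lost without WT replicate 3 (adjusted p = 0.0552) and without Piezo1cko replicate 1 (adjusted p = 0.0551). *Mitf*, the factor of melanocytes, osteoclasts and mast cells, had 51.4, 54.5 and 46.2 reads in WT and 48.1, 53.6 and 41.7 in Piezo1cko libraries, and the groups overlapped. Its log2 fold change of -0.08 was not called, with an interval of -0.47 to 0.30. *Tfec*, the fourth gene of the family, was listed with the signaling genes and is named after its values were seen. Its level per length was above that of *Tfe3*, 32.8 TPM in WT and 30.2 TPM in Piezo1cko LSCs, and it was called lower at 90.5% of the WT mean (adjusted p = 0.0245). That call was lost without WT replicate 2 (adjusted p = 0.079), WT replicate 3 (0.0634), Piezo1cko replicate 2 (0.0793) or Piezo1cko replicate 3 (0.109), and after rescaling (0.133). Summed over *Tfeb*, *Tfe3* and *Mitf*, the level was 34.1 ± 1.4 TPM in WT and 26 ± 1.95 TPM in Piezo1cko LSCs.

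The E-box that these factors bind has the letters CACGTG, and the longer palindrome TCACGTGA is the core of the CLEAR element of lysosomal genes. Promoter windows of 250 bases before and 50 from the RefSeq start site (GRCm38.p6) were at hand for 30 of the 40 genes. The 8-base core stood in a window of 6 of these 30 genes (20%), while 1.12% of the 27025 genes with a promoter window hold it. The 6-base E-box was found in 11 of the 30 (36.7%) and in 8.09% of all genes. Other genes of the same pathways, described further below, also held these letters. Of the 110 of them with a window, 9 held the core and 26 the E-box. Both motifs read the same on either strand, and each 8-base core holds a 6-base E-box. The 6 promoters with the core are printed from 140 bases before the start site to 20 from it, 5′ to 3′ on the gene's strand, since they carry the site through which TFEB is known to act. Capitals mark the core.

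*Ctsa* (its second RefSeq start, chr2:164833633-164833792, + strand): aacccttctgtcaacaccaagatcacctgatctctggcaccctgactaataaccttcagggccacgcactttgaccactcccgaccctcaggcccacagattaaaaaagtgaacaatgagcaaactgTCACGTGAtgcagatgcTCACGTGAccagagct
*Ctsd* (chr7:142387808-142387967, - strand): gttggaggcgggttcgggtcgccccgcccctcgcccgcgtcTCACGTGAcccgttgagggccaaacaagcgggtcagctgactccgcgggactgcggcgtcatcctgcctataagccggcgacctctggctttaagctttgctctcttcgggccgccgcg
*Mcoln1* (chr8:3500379-3500538, + strand): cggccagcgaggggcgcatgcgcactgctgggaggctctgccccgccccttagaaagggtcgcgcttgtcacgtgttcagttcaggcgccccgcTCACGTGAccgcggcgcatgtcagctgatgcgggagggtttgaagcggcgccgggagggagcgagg
*Atp6v0d1* (chr8:105566045-105566204, - strand): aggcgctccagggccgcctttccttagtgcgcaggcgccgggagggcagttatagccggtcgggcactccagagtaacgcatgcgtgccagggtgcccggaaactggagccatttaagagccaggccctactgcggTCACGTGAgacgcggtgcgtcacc
*Atp6v1a* (chr16:44139240-44139399, - strand): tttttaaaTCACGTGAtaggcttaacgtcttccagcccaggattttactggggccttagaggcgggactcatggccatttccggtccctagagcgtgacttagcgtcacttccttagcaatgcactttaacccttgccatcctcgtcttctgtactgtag
*Atg3* (chr16:45158689-45158848, + strand): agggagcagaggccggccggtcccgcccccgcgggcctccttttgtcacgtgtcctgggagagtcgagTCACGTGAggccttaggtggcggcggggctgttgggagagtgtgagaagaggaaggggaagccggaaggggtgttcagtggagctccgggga

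*Ctsa* held 2 cores, with first bases at -13 and 5 from the start site. In the other 5 promoters the core began at -99 (*Ctsd*), -46 (*Mcoln1*), -4 (*Atp6v0d1*), -132 (*Atp6v1a*) and -72 (*Atg3*). The 6 genes with the core moved in both directions: *Mcoln1*, *Ctsa*, *Atp6v0d1* and *Ctsd* were called higher, and *Atg3* and *Atp6v1a* lower. Their median log2 difference on the deposited scale was 0.14. The 11 genes with any E-box counted 6 higher, 4 lower and 1 not called, with a median of 0.06. The 19 genes with a promoter window and no E-box counted 3 higher, 9 lower and 7 not called, with a median of -0.03. Over all genes tested, 31.6% were higher and 31.4% lower. These sets are small, and a difference between them was not tested. *Lamp1* carried 4 E-boxes without the longer core, and the other 4 genes with an E-box alone were *Atg7*, *Atg14*, *Atg5* and *Ctsl*. The letters TGATGNAA, a site of ATF4 and C/EBP dimers searched on both strands, stood in windows of 2 of the 30 genes (*Ctsl* and *Atp6v0d1*), 6.67% beside 4.51% of all genes. A motif in a window is a description of its letters, and binding was not measured. A link between the levels of *Tfeb* or *Tfe3* and those of these genes was not tested.

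**Figure D2:**
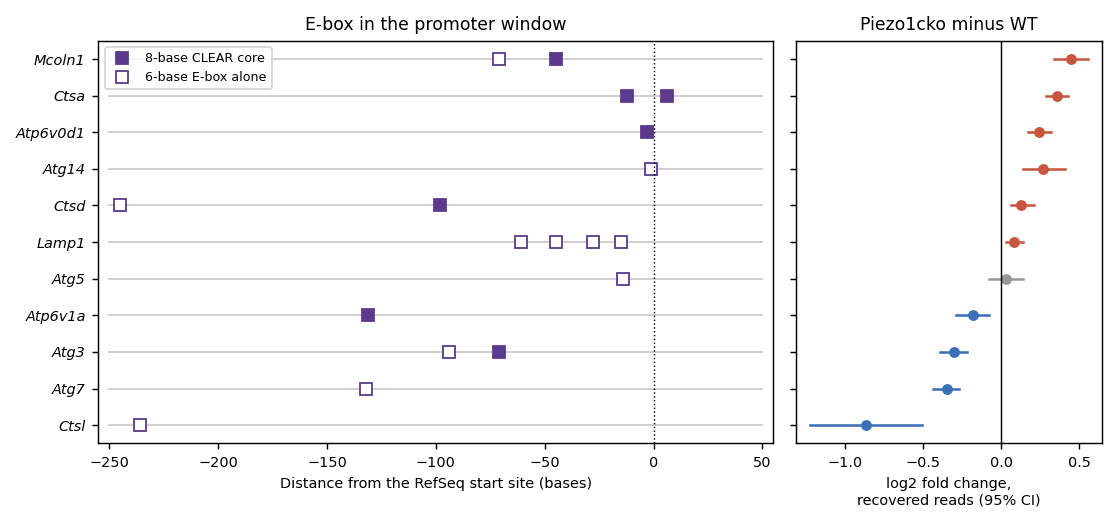
Left, position of each E-box in the promoter windows of the 11 genes that hold one (horizontal axis, bases from the RefSeq start site), with filled squares for the 8-base core and open squares for the 6-base E-box alone. Right, log2 fold change of recovered reads with its 95% confidence interval (Piezo1cko minus WT, 3 libraries per group), red for genes called higher, blue for lower and grey for not called. Genes with a filled square lie on both sides of 0, from -0.30 for *Atg3* to 0.45 for *Mcoln1*.

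Of the initiation complex, only *Ulk1*, the kinase that starts autophagy, was called. It had 172, 146 and 189 normalized reads in WT and 95.1, 93.6 and 106 in Piezo1cko libraries. The groups stood apart, the Piezo1cko mean being 58.1% of the WT mean, with a log2 fold change of -0.78 (-1.05 to -0.51, adjusted p = 1.42e-05). *Atg13*, which tethers the kinase and had the highest level per length of the 3 (72.8 ± 1.03 TPM in WT), had 1423, 1472 and 1448 reads in WT and 1433, 1327 and 1453 in Piezo1cko libraries. The groups overlapped, and its log2 fold change was -0.05 (-0.14 to 0.05, adjusted p = 0.41). The scaffold *Rb1cc1* was at 94.6% of the WT mean (adjusted p = 0.147), and was called lower only when Piezo1cko replicate 1 was left out (adjusted p = 0.0293).

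The PI3-kinase complex was split. *Pik3c3*, which encodes the catalytic subunit VPS34, had 1182, 1168 and 1268 reads in WT and 865, 908 and 892 in Piezo1cko libraries. All Piezo1cko libraries were lower, at 73.7% of the WT mean and a log2 fold change of -0.44 (-0.54 to -0.34, adjusted p = 4.44e-07). *Atg14*, the subunit that directs the complex to the forming autophagosome, rose to 121% of the WT mean (log2 fold change 0.27, 0.14 to 0.41, adjusted p = 8.36e-04). *Becn1*, the regulatory subunit with the highest level per length of the 3, had 2728, 2818 and 3013 reads in WT and 2768, 2729 and 2601 in Piezo1cko libraries. These overlapped, and the log2 fold change of -0.08 (-0.17 to 0.01) was not called, except without WT replicate 1 (adjusted p = 0.0488) and with a replicate block (0.0313). Opposite-strand gene *Cntd1* covers 43.9% of the exons of *Becn1*, which unstranded reads do not separate, but it held 185 reads in all beside 16741.

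Of the 5 conjugation genes, whose products take part in joining ATG12 to ATG5 and LC3 to lipid, 4 were called lower, 0 higher and 1 not called. *Atg16l1*, which places the ATG12-ATG5 conjugate on the membrane, had 629, 663 and 648 reads in WT and 449, 419 and 393 in Piezo1cko libraries. It stood at 65% of the WT mean, the lowest of the 5, with a log2 fold change of -0.62 (-0.76 to -0.49, adjusted p = 8.43e-08). *Atg7*, the E1-like enzyme of both conjugations, had 1785, 1736 and 1747 reads in WT and 1335, 1392 and 1404 in Piezo1cko libraries. Its values did not overlap, at 78.4% of the WT mean and a log2 fold change of -0.35 (-0.44 to -0.27, adjusted p = 1.04e-06). *Atg3*, the E2-like enzyme for LC3 and the highest of the group per length (158 ± 2.01 TPM in WT), had 2290, 2262 and 2235 reads in WT and 1787, 1783 and 1928 in Piezo1cko libraries. It was at 81% of the WT mean, without overlap (log2 fold change -0.30, -0.39 to -0.22, adjusted p = 5.32e-06). *Atg12*, the ubiquitin-like partner of ATG5, was at 88.3% with overlapping groups (adjusted p = 0.0211). Its call was lost without WT replicate 1 (adjusted p = 0.115), WT replicate 2 (0.0751), Piezo1cko replicate 1 (0.085) or Piezo1cko replicate 3 (0.0768), and after rescaling between libraries (0.0791). *Atg5* was at 102% of the WT mean and not called (log2 fold change 0.03, -0.08 to 0.14). The summed level of the 5 genes was 310 to 321 TPM in the WT libraries and 265 to 277 TPM in the Piezo1cko libraries.

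The LC3 and GABARAP proteins are the substrates of that machinery and coat the autophagosome. *Map1lc3b*, which encodes LC3B, had 5156, 5280 and 5416 reads in WT and 6330, 6465 and 6484 in Piezo1cko libraries. All Piezo1cko libraries were higher, at 122% of the WT mean and a log2 fold change of 0.28 (0.22 to 0.34, adjusted p = 3.11e-07). *Gabarap*, the highest of the family per length (169 ± 6.19 TPM in WT), had 1463, 1367 and 1416 reads in WT and 1419, 1363 and 1358 in Piezo1cko libraries. The groups overlapped, and the log2 fold change was -0.04 (-0.13 to 0.05, adjusted p = 0.492). *Gabarapl1* (107% of the WT mean), *Gabarapl2* (108%) and *Map1lc3a* (106%) were not called either, though *Gabarapl1* (adjusted p = 0.0328) and *Gabarapl2* (0.024) were called higher after rescaling, and *Gabarapl2* also by eBayes without a trend (0.0271). The family summed to 440 to 458 TPM in WT and 492 to 499 TPM in Piezo1cko libraries.

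All 3 cargo receptors were called lower. *Sqstm1* (chr11:50199366-50210827), which encodes p62, the receptor for ubiquitinated cargo, had 4024, 4262 and 4108 reads in WT and 2434, 2471 and 2470 in Piezo1cko libraries. The groups were far apart beside their spread, with the Piezo1cko mean at 59.5% of the WT mean. The log2 fold change was -0.75 (-0.82 to -0.68), and the adjusted p of 2.41e-12 was the smallest of the 40 genes. *Mrnip* on the opposite strand covers 17.3% of the exons of *Sqstm1*, with 615 reads in all beside 19932. *Optn*, a receptor for damaged mitochondria and bacteria, was low, with 34.9, 37.3 and 40.4 reads in WT and 20.9, 15.6 and 24.4 in Piezo1cko libraries. Its Piezo1cko mean was 54.1% of the WT mean, with a wide interval around the log2 fold change of -0.90 (-1.41 to -0.38, adjusted p = 0.00357). *Nbr1*, a receptor related to p62, was at 84.4% of the WT mean (log2 fold change -0.24, -0.39 to -0.10, adjusted p = 0.00319). *Sqstm1* carried most of the summed level of the group, 270 ± 7.06 TPM of 285 ± 7.04 TPM in WT.

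**Figure D3:**
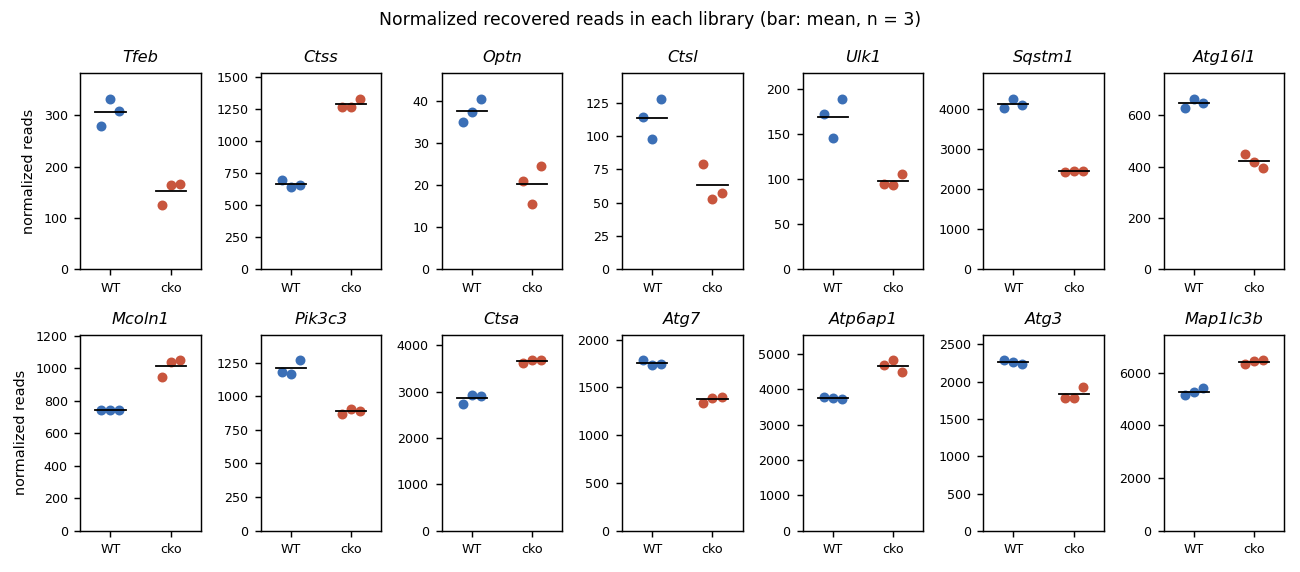
Normalized reads (vertical axes, each from 0) of the 14 genes of the 40 with the largest changes on recovered reads, one panel per gene, with a point per library (blue WT, red Piezo1cko, labelled cko) and a bar at each group mean (n = 3). In all 14 panels the points of the 2 groups do not overlap, and *Ctss*, *Mcoln1*, *Ctsa*, *Atp6ap1* and *Map1lc3b* are higher in Piezo1cko libraries while the other 9 are lower.

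Lysosomal membrane genes included 2 that rose and 1 that fell. *Mcoln1*, which encodes the calcium channel TRPML1 of the lysosome, had 742, 744 and 745 reads in WT and 950, 1040 and 1051 in Piezo1cko libraries. Its Piezo1cko mean was 136% of the WT mean, a log2 fold change of 0.45 (0.34 to 0.56, adjusted p = 7.83e-07). The 2 main glycoproteins of the lysosomal membrane went opposite ways: *Lamp2* fell to 86.1% of the WT mean (log2 fold change -0.22, -0.30 to -0.14, adjusted p = 1.20e-04), and *Lamp1* was at 106% (0.08, 0.03 to 0.14, adjusted p = 0.021). The call of *Lamp1* was lost without WT replicate 2 (adjusted p = 0.08), Piezo1cko replicate 1 (0.061) or Piezo1cko replicate 2 (0.0547). *Cd63*, a tetraspanin of lysosomes and granules with the highest level per length of the group (640 ± 15 TPM in WT), had 10937, 10807 and 10441 reads in WT and 10796, 10771 and 10862 in Piezo1cko libraries. The groups overlapped, with a log2 fold change of 0.01 (-0.04 to 0.06, adjusted p = 0.733), and it was called higher after rescaling (0.046).

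The 7 cathepsins, the proteases of the lysosome, were divided, with 3 higher, 3 lower and 1 not called. *Ctss* (chr3:95526786-95556403), the cysteine protease that trims the invariant chain of MHC class II, had 698, 638 and 655 reads in WT and 1267, 1265 and 1328 in Piezo1cko libraries. It was at 194% of the WT mean, the largest rise of the 40 genes, with a log2 fold change of 0.96 (0.85 to 1.06, adjusted p = 1.17e-11). *Ctsa*, a carboxypeptidase that also protects other lysosomal enzymes, had 2729, 2923 and 2897 reads in WT and 3614, 3671 and 3676 in Piezo1cko libraries. It was at 128% of the WT mean, without overlap (log2 fold change 0.36, 0.29 to 0.43, adjusted p = 1.29e-07). The aspartic protease gene *Ctsd* rose to 110% (log2 fold change 0.13, 0.06 to 0.21, adjusted p = 0.00408).

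*Ctsl*, a cysteine protease, was low and fell the most of the cathepsins, from 114, 97.9 and 128 reads in WT to 79.4, 52.6 and 57 in Piezo1cko libraries. The groups stood apart, at 55.5% of the WT mean, with a log2 fold change of -0.87 (-1.23 to -0.51, adjusted p = 1.20e-04). *Ctsb* (93.7%, adjusted p = 0.00127) and *Ctsh* (92.1%, adjusted p = 0.00809) fell slightly, and both calls were lost after rescaling between libraries (adjusted p = 0.261 and 0.13). *Ctsz* had by far the highest level per length of the 40 genes, 2138 ± 83.5 TPM in WT and 2262 ± 80.6 TPM in Piezo1cko LSCs. Its normalized reads were 13465, 14640 and 13956 in WT and 14313, 15279 and 14271 in Piezo1cko libraries, and they overlapped. The log2 fold change of 0.06 (-0.00 to 0.13, adjusted p = 0.107) was not called, but it was without WT replicate 2 (0.0432), after rescaling (0.00326), with recovered reads scaled by library totals (0.0387) and with a replicate block (9.12e-04). The 7 cathepsins summed to 3664 ± 77.5 TPM in WT and 3918 ± 85.1 TPM in Piezo1cko LSCs.

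*Hexa*, the alpha subunit of the hexosaminidase that degrades gangliosides, had 5210, 5326 and 5300 reads in WT and 4976, 5026 and 4977 in Piezo1cko libraries. It was called lower at 94.6% of the WT mean (log2 fold change -0.08, -0.14 to -0.02, adjusted p = 0.028). *Lipa*, the acid lipase that frees cholesterol and fatty acids, was called lower at 89% (log2 fold change -0.17, -0.30 to -0.05, adjusted p = 0.0195). Neither call was stable: that of *Hexa* was lost without WT replicate 2 (adjusted p = 0.069), WT replicate 3 (0.0782) or Piezo1cko replicate 3 (0.0697) after rescaling (0.489) and with recovered reads scaled by library totals (0.0588), and that of *Lipa* without WT replicate 1 (0.0829), 2 (0.0539) or 3 (0.0616) or Piezo1cko replicate 2 (0.148), after rescaling (0.0923) and by eBayes without a trend (0.0564).

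The V-ATPase is the pump that acidifies the lysosome, with a membrane V0 and a cytosolic V1 sector. *Atp6ap1*, an accessory subunit needed for assembly, had 3780, 3759 and 3734 reads in WT and 4689, 4823 and 4487 in Piezo1cko libraries. All Piezo1cko libraries were higher, at 124% of the WT mean (log2 fold change 0.31, 0.24 to 0.38, adjusted p = 3.84e-07). *Atp6v0d1*, a V0 subunit and the highest of the 5 per length (412 ± 13.8 TPM in WT), had 3461, 3258 and 3376 reads in WT and 4094, 4003 and 3864 in Piezo1cko libraries. It was at 118% of the WT mean without overlap (log2 fold change 0.24, 0.17 to 0.32, adjusted p = 1.39e-05). The V1 subunit genes moved less and not together: *Atp6v1b2* was called higher at 107% (adjusted p = 0.0169), *Atp6v1a*, the catalytic subunit, lower at 88% (adjusted p = 0.00497), and *Atp6v1h* was at 94.5% and not called (adjusted p = 0.0938), except by eBayes without a trend (0.0281). The call of *Atp6v1b2* was lost without WT replicate 2 (adjusted p = 0.0658), WT replicate 3 (0.0743) or Piezo1cko replicate 1 (0.0802), and by eBayes without a trend (0.0632). The 5 genes summed to 1093 to 1132 TPM in WT and 1242 to 1333 TPM in Piezo1cko libraries.

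**Figure D4:**
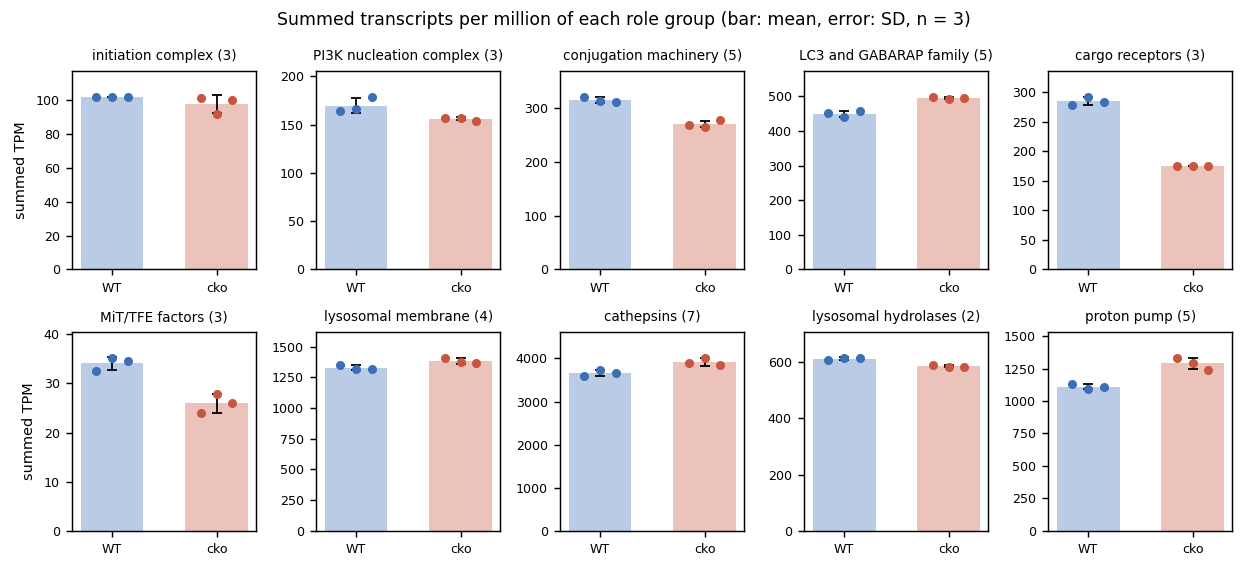
Summed level per length (TPM, vertical axes from 0) of each of the 10 role groups, with the number of genes in brackets. Bars are means, error bars SD (n = 3) and points single libraries (blue WT, red Piezo1cko, labelled cko). The cargo receptors fell from 285 to 175 TPM on average and the conjugation genes from 314 to 270 TPM, while the proton pump genes rose from 1112 to 1290 TPM.

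Another 135 genes of the same pathways were listed by role, and 132 were tested, of which 56 were called higher and 42 lower (74.2% called, beside 63% of all genes). Their median log2 difference on the deposited scale was 0.03. Of 26 other autophagy core genes, 11 were higher and 9 lower. *Wipi1*, which binds PI3-phosphate on the forming autophagosome, rose from 744 ± 25.1 to 1524 ± 41.2 normalized reads (205% of the WT mean, adjusted p = 1.39e-12). *Ulk2*, the paralog of *Ulk1*, was at 55.2% of the WT mean (adjusted p = 1.94e-07), beside 58.1% for *Ulk1*, and *Rubcn*, an inhibitor of the PI3-kinase complex, was at 63.6% (adjusted p = 6.42e-07). Of 13 other selective receptors, 7 were higher and 3 lower. *Retreg1* and *Ccpg1*, which are among the endoplasmic reticulum receptors of this list, went opposite ways, at 59.5% and 143% of the WT mean (adjusted p = 6.09e-09 and 2.48e-06). *Calcoco1* was at 156% (adjusted p = 3.07e-07).

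Of 13 other proton pump subunits tested, 7 were higher and 3 lower. The isoforms of the V0 a subunit did not move together: *Atp6v0a1* rose from 443 ± 17.6 to 992 ± 11.3 normalized reads (224% of the WT mean, adjusted p = 1.18e-12), and *Atp6v0a2* fell from 1322 ± 62.8 to 883 ± 16.1 (66.8%, adjusted p = 9.36e-09). *Tcirg1*, which encodes the a3 isoform and is also named after its values were seen, had the highest level per length of the 3 (94.4 TPM in WT) and rose to 121% (adjusted p = 1.33e-05). The accessory subunits also went apart, *Atp6ap2* falling to 76.4% (adjusted p = 8.02e-08) while *Atp6ap1* rose. Of 38 other hydrolases and activators, 14 were higher and 10 lower. *Ctsc*, the dipeptidyl peptidase that activates the serine proteases of granules, fell to 38.6% of the WT mean (adjusted p = 1.29e-16), *Gla*, an alpha-galactosidase, to 67.2% (adjusted p = 2.71e-08), and *Ctsf* rose to 173% (adjusted p = 1.19e-07). Of 24 other membrane and transport genes, 12 were higher and 8 lower, with *Laptm4a* at 177% (adjusted p = 9.03e-13), the sorting receptor *M6pr* at 78.8% (adjusted p = 3.52e-08) and the endolysosomal cation channel gene *Tpcn1* at 69.1% (adjusted p = 1.66e-05).

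The list of signaling genes at the lysosome, most of them acting on MiT/TFE factors and mTORC1 and 1 of them *Tfec*, counted 5 higher and 9 lower of 18. *Rragc*, a Rag GTPase that brings mTORC1 and TFEB to the lysosome, had 181 ± 11.9 normalized reads in WT and 96.5 ± 9 in Piezo1cko LSCs (53.3%, adjusted p = 6.94e-07). *Lamtor4*, a subunit of the complex that anchors the Rag GTPases, was at 135% (adjusted p = 1.08e-07), and *Foxo3*, a forkhead factor that also activates autophagy genes, at 145% (adjusted p = 7.87e-09).

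**Figure D5:**
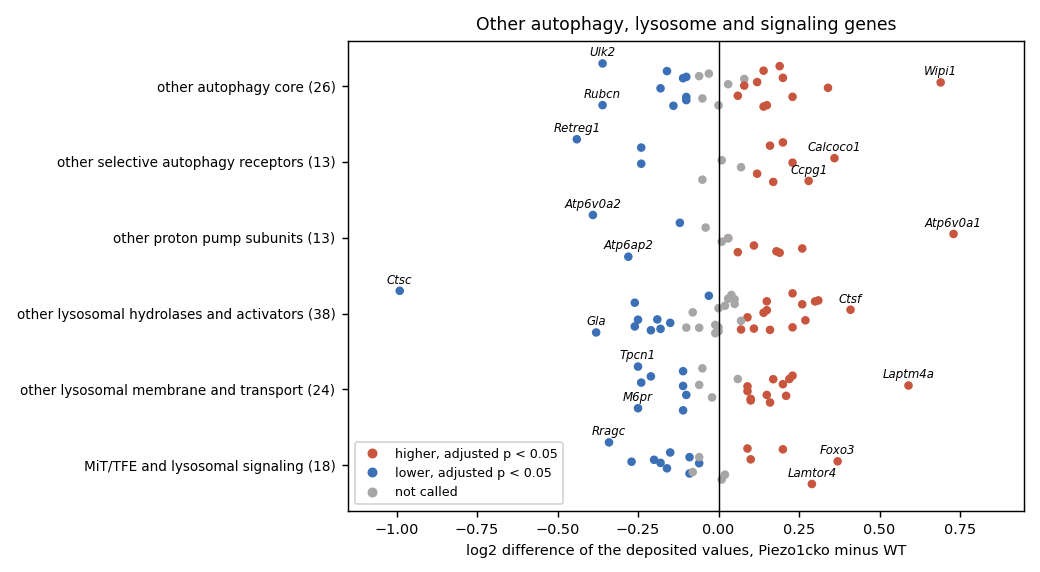
Log2 difference of the deposited values (Piezo1cko minus WT, horizontal axis) of the 132 other pathway genes tested, one point per gene in 6 lists (number tested in brackets), red for genes called higher, blue for lower and grey for not called, with vertical position within a list carrying no value. Points lie on both sides of 0 in all 6 lists, and the named genes are the 3 with the largest changes of each list, from -0.99 for *Ctsc* to 0.73 for *Atp6v0a1*.

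Several of these genes are also high in mature myeloid cells. Markers of myeloid, lymphocyte and erythroid cells were summed by list, and most of these sums differed between the groups. The summed level of 8 neutrophil markers was 600 to 619 TPM in WT and 63.6 to 68.9 TPM in Piezo1cko libraries, with 5 of the 6 tested lower and *Ly6g* and *Retnlg* at 3 reads or fewer in every library. The 8 mast cell and basophil markers summed to 508 to 530 TPM in WT and 1584 to 1628 TPM in Piezo1cko libraries (6 of 7 tested higher, *Mcpt4* at 3 reads or fewer). *Prss34* (410 TPM in WT and 812 TPM in Piezo1cko LSCs) and *Cpa3* (81.9 and 735 TPM) made up most of it. The 7 dendritic cell markers summed to 30.9 to 32.5 TPM in WT and 64.1 to 65.7 TPM in Piezo1cko libraries, with 4 of 6 tested higher and 2 lower. Most of this sum was *Flt3*, at 23 TPM in WT and 58 TPM in Piezo1cko LSCs. The 2 lower genes were *Zbtb46* (4.67 TPM in WT and 1.96 TPM in Piezo1cko LSCs) and *Ccr7* (3.01 and 0 TPM). The 9 macrophage markers summed to 98.2 to 107 TPM in WT and 105 to 109 TPM in Piezo1cko libraries, with 2 of 5 tested higher and *C1qa* and *Marco* at 3 reads or fewer. The 4 lymphocyte markers went from 962 to 1000 TPM in WT to 593 to 613 TPM, almost all of it *Nkg7*, with *Cd3e* and *Ms4a1* at 3 reads or fewer, and the 5 erythroid markers from 17.8 to 21.3 TPM in WT to 5.75 to 6.95 TPM. The part of these markers' cells in the changes of *Ctss*, *Ctsc*, *Ctsl* and the other genes above was not tested.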

How the data were processed

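Poly(A) RNA was sequenced as paired ends from Smart-seq2 based, Tn5-fragmented libraries. Per the labels, the authors used fastp 0.20.1, HISAT2 2.2.1 with GRCm38, featureCounts 2.0.1 and DESeq2 1.28.1. The deposited values are log2 values in the form of a regularized log, which shrinks differences, and were not counts, so the study's count model was replaced by limma 3.58.1 (R 4.3.3, lmFit, eBayes with a trend, no covariate) on 16746 genes with a mean of at least 1, with Benjamini-Hochberg adjustment. Samples were grouped by their labels as 3 WT and 3 Piezo1cko libraries.

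Reads were recovered by fitting size factors and the shrinkage so that values became whole: 90.5% of values of the 18355 genes averaging 1 read or more lay within 0.1 of a whole number, and 22% with the shrinkage set 10% off. Above a mean of 1000 reads, 72.6% or fewer did, an error of a few reads. Recovered reads of 17352 genes with at least 10 reads were fitted with limma-voom. Both steps were tested on simulated data. TPM used summed exon lengths of GENCODE M21. Intervals cover the spread between libraries, and reads carry no molecular identifiers.

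The 40 genes and all lists were chosen with earlier results of these data known. One lymphocyte marker is not reported here. Values per library are given for called members among the 14 largest changes on recovered reads, for MiT/TFE factors and for each role's highest gene per length, and at most 3 genes are named per other list, with *Tfec* and *Tcirg1* added after their values were seen. Alternatives were other filters, rescaling, recovered reads, a replicate block, eBayes without a trend, and each library left out. The block and left-out libraries on recovered reads were added after seeing the data. Python 3.11.15 with pandas 2.3.3 was used.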

Additional observations from a re-analysis of the deposited data

How the results depend on the processing

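No log2 change of the 40 genes changed direction with a call under any alternative. The number called higher, 10, ran from 10 to 14 under the other settings and from 8 to 10 with a library left out, and the number called lower, 18, from 13 to 19 and from 15 to 17. Of the 28 called genes, 22 kept their call in all 6 fits that left out a library. The count past the DEG thresholds was 0 on deposited values in every alternative and 1 on recovered reads, 1 with a replicate block on them, and 0 when they were scaled by library totals. It ran from 0 to 2 over the fits of recovered reads that left out a library, *Tfeb* falling short without WT replicate 2 (-0.96) and without Piezo1cko replicate 1 (-0.89), *Ctsl* passing without Piezo1cko replicate 1 (-1.04) and *Optn* without Piezo1cko replicate 3 (-1.04). Same-numbered WT and Piezo1cko libraries had deviations correlated at 0.2, 0.16 and 0.07, beside -0.17 to 0.03 for differently numbered ones. Whether the numbers mark something shared by these libraries was not tested, and the main fit has no term for them. With the replicate block 11 genes were higher and 19 lower, *Becn1* (adjusted p = 0.0313) and *Ctsz* (9.12e-04) being added. Depth limits *Optn* and *Mitf* most, which have wide intervals.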
